A study of Mus musculus with 80 samples.

Results

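The strain by exposure interaction in the mouse lung was measured for styrene at 120 ppm: for each gene, the change between 120 and 0 ppm in wild type (WT) C57Bl/6 mice minus the same change in C57Bl/6 mice humanized for CYP2F1 (TG). It rests on 20 of the 80 arrays of the study, taken by the strain and dose in the sample titles, with 5 arrays each of TG at 120 ppm, TG at 0 ppm, WT at 120 ppm and WT at 0 ppm. All mice were adult males from Taconic, all breathed styrene or air once for 6 h, and the whole lungs were collected the next morning. Each array is labelled as a biological replicate. The promoter and construction of the human transgene, and whether TG mice keep a working mouse Cyp2f2, are stated in no source used here. The C57Bl/6 CYP2F2 knockout (KO) strain was also set against TG, and the 10 and 40 ppm arrays of TG and WT enter the model to estimate the spread between arrays. The titles spell the background C57Bl/6 and the sample characteristics C67Bl/6.

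Styrene is a solvent that the lung oxidizes to reactive products. In mice much of this is done by the cytochrome P450 CYP2F2 of club cells, the secretory cells of the small airways, and CYP2F1 is the human counterpart. Interferons are cytokines that act through receptors, Janus kinases and transcription factors such as STAT2 and IRF9 to switch on antiviral genes. These factors bind a DNA element called the interferon-stimulated response element (ISRE).

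Values are log2 signals, on which a step of 1 is a factor of 2. A positive difference means that the change at 120 ppm was more upward in WT than in TG, and a negative one that it was more downward. Of 11406 genes tested with limma, 1112 (9.75%) had a difference at an adjusted p under 0.05 (Benjamini-Hochberg over all genes). Of these, 441 (3.87%) were positive and 671 (5.88%) negative, and the median difference over all genes was -0.04. The split between the directions depends on scaling and on 1 array. It was 705 positive and 470 negative with each array centred on its median, 681 and 560 after quantile normalization, 890 and 816 with array weights, and 824 and 634 without TG 0 ppm replicate 4. When each of the 20 arrays was left out in turn, 306 positive and 405 negative genes held every time. Genes with a positive difference had a median change of -0.05 in TG and 0.61 in WT. Those with a negative difference had a median change of 0.21 in TG and -0.36 in WT, against 0.06 and 0.01 over all genes tested.

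Some arrays stood apart. TG 0 ppm replicate 4 had a median signal of 3.84, while the other TG arrays lay between 4.07 and 4.14 and the WT arrays between 4.53 and 4.59. All WT medians were thus above all TG medians, and levels set across strains below include this offset. Its cause was not tested. WT 0 ppm replicate 1 had a mean of 8.42 over 13 squamous epithelium markers, against 4.34 to 4.49 in the other WT 0 ppm arrays, and 5.63 over 11 skeletal muscle markers, against 3.50 to 3.64. Without it the difference was called for 434 positive and 643 negative genes, and without both arrays for 778 and 611. TG 120 ppm replicate 1 was the highest of its group for Cxcl10, Oasl1, Ifit1 and other genes below, and without it the counts were 413 and 557. TG 0 ppm replicate 3 had the lowest mean of its group for club markers (9.50 against 10.12 to 10.31). It was also lowest for ciliated markers (7.30 against 7.73 to 8.07). Among the negative leads it was lowest for Muc16, Thrsp and Chad but highest for Cyp1a1. Without this array the counts were 378 and 592. Within a group, arrays correlated at 0.979 to 0.995. Markers of lung were at high signal in all 20 arrays, with Sftpc of type 2 cells at 13.66 to 13.89, Scgb1a1 of club cells at 13.57 to 13.85 and Ager of type 1 cells at 13.23 to 13.44. In whole lung, fewer cells of a type and less RNA per cell cannot be told apart.

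Cyp2f2 on chromosome 7, the gene that the study targeted, is given by its brightest probe set, as all genes are. TG lungs had 11.61, 11.88, 11.84, 11.70 and 11.97 at 120 ppm and 11.58, 11.53, 11.48, 11.83 and 11.89 at 0 ppm. WT lungs had 12.57, 12.72, 12.73, 12.47 and 12.53 at 120 ppm and 13.19, 13.27, 13.26, 13.20 and 13.22 at 0 ppm. All TG arrays lay below all WT arrays, the WT groups did not overlap, and the TG groups did. The change was 0.14 ± 0.10 (SE) in TG (adjusted p = 0.479) and -0.63 ± 0.10 in WT (8.87e-06), a difference of -0.76 ± 0.14 (limma, adjusted p = 0.000204). No source used here says where the probe set lies relative to any altered part of the gene, so its signal in TG carries no statement about transcript.

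Of the 12 genes with the largest positive differences among those whose call held in every fit without 1 array, 4 were on the list of antiviral effectors (Mx1, Oasl1, Rsad2 and Ifit1), Cxcl10 was on that of CXCR3 ligands and Ccl12 on that of monocyte and neutrophil chemokines. The ISRE letters (GAAA, any 2 bases, GAAA, on either strand) stood in the promoters of 6 of the 10 that have an entry in the RefSeq promoter table. These were Cxcl10, Rsad2, Ifit1, Apol9a, Ifit1bl1 and Saa3. The letters were in no promoter of the 10 genes with an entry among the 12 largest negative differences chosen likewise. They were in 3.44% of all 32851 mouse promoters. A gene was counted if any of its promoters had a match, while the percentages are shares of promoters. A match is a description of the letters in a window of 300 bases, from 250 before the start of the gene. The promoters of 4 positive genes are shown with the matches in capitals, followed by that of Pon1, a gene with a large negative difference and no match (RefSeq, GRCm38.p6). Cxcl10 is at chr5:92348840-92349139 on the minus strand, Rsad2 at chr12:26456403-26456702 (minus), Ifit1 at chr19:34640639-34640938 (plus), Saa3 at chr7:46715627-46715926 (minus) and Pon1 at chr6:5193897-5194196 (minus).
Cxcl10: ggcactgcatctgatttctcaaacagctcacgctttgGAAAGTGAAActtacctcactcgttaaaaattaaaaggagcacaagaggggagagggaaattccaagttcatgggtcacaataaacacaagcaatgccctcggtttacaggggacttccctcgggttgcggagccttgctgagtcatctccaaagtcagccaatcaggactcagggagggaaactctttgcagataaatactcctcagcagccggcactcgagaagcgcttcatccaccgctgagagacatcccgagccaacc
Rsad2: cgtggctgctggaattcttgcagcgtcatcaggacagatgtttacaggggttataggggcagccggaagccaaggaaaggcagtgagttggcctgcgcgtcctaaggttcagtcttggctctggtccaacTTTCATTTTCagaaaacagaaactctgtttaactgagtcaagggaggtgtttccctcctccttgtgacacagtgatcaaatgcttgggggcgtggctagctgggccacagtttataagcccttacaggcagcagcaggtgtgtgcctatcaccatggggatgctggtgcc
Ifit1: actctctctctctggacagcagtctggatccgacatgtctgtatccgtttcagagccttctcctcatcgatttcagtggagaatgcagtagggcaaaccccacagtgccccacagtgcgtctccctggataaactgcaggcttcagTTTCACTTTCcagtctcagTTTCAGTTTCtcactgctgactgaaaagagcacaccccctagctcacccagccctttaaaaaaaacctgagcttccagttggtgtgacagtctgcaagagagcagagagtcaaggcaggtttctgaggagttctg
Saa3: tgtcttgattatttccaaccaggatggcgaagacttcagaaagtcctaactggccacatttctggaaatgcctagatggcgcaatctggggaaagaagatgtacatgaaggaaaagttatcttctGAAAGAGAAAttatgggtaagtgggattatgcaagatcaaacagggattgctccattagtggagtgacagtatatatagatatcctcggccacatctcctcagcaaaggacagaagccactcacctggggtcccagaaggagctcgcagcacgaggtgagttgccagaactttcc
Pon1: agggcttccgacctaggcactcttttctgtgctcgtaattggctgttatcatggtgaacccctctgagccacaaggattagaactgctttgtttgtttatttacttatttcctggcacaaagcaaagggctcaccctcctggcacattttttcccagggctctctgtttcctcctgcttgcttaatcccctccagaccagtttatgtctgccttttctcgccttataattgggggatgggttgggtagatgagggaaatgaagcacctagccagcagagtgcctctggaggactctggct
In Cxcl10 the match begins 213 bases before the start, in Rsad2 120, in Saa3 125, and Ifit1 holds 2. Letters of the response elements of the aryl hydrocarbon receptor (TNGCGTG, in 5.07% of all promoters) and of NRF2 (TGACNNNGC, in 12.4%) were found for 0 and 2 of the 10 positive genes and for 1 and 1 of the 10 negative ones. The E2F letters (TTTCCCGC or TTTGGCGC, in 1.56%) and those of the heat shock element (3 alternating GAA and TTC units set 2 bases apart, in 0.603%) were found for none of these 20 genes.

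Cxcl10, a chemokine that draws T cells through the receptor CXCR3, had the largest positive difference. Its signal was 4.23, 3.39, 3.36, 3.28 and 3.19 in TG at 120 ppm and 3.82, 3.45, 3.33, 3.78 and 3.33 in TG at 0 ppm. In WT it was 8.98, 8.78, 7.96, 8.94 and 8.08 at 120 ppm and 4.28, 3.58, 3.53, 3.59 and 3.33 at 0 ppm. The 5 exposed WT lungs stood above all others, and the other 3 groups overlapped. Those 3 groups averaged 3.49 in TG at 120 ppm, 3.54 in TG at 0 ppm and 3.66 in WT at 0 ppm, under the table median of 4.28 that the filter on signal used. Among the 4 groups the exposed WT lungs alone carried the gene past it, so the sizes below are set against signals near the bottom of the scale, and nothing is read from the small change in TG. The same was true of Oasl1, Cxcl9, Ccl2, Ccl7, Ccl12, Pole and Hmgcs1, 8 of the 89 named genes with Cxcl10, and of Mx1 except that its mean in WT at 0 ppm was at that median. The change of Cxcl10 was -0.05 ± 0.32 in TG (adjusted p = 0.953) and 4.89 ± 0.32 in WT (6.17e-14), a difference of 4.93 ± 0.45 (limma, adjusted p = 9.55e-10). Cxcl9, the other CXCR3 ligand tested, had a difference of 1.69 ± 0.34 (limma, adjusted p = 0.000821), with -0.10 in TG and 1.59 in WT. Cxcl11 did not pass the filter on signal.

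Mx1, a GTPase that blocks virus replication, had 3.71, 2.78, 2.67, 2.94 and 3.37 in TG at 120 ppm and 3.35, 2.97, 3.13, 3.39 and 3.09 in TG at 0 ppm. WT lungs had 8.36, 8.54, 8.08, 8.56 and 7.95 at 120 ppm and 4.63, 4.58, 4.14, 3.85 and 4.18 at 0 ppm. The TG groups overlapped, at means of 3.09 and 3.19 below the table median, and the WT groups were more than 3 log2 units apart. On these low TG signals the change was -0.09 ± 0.22 in TG and 4.02 ± 0.22 in WT, and the difference of 4.12 ± 0.31 shared the lowest adjusted p of all genes (limma, 1.31e-11). Oasl1, a 2'-5'-oligoadenylate synthetase-like protein, had a difference of 3.92 ± 0.32 (limma, adjusted p = 9.86e-11). Its 5 exposed WT lungs had 7.99 to 8.54 and all other lungs 3.52 to 4.78. Rsad2, the antiviral enzyme viperin, had a difference of 3.26 ± 0.42, with 6.25 to 7.97 in TG at 120 ppm, 6.22 to 7.24 in TG at 0 ppm, 10.42 to 11.04 in WT at 120 ppm and 6.53 to 7.60 in WT at 0 ppm. For Oasl1 and Rsad2 the TG lungs at both doses overlapped the WT lungs in air, and the exposed WT lungs were apart.

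Ifit1, which binds viral RNA, had 8.99, 7.82, 7.18, 7.38 and 7.03 in TG at 120 ppm and 7.81, 7.51, 7.97, 7.69 and 7.63 in TG at 0 ppm. In WT it had 10.78, 10.67, 10.53, 10.87 and 10.38 at 120 ppm and 8.03, 7.72, 7.66, 7.41 and 7.08 at 0 ppm. TG 120 ppm replicate 1 was above every unexposed lung of both strains and below every exposed WT lung. The difference was 3.11 ± 0.35 (limma, adjusted p = 1.07e-07). The same array led its group in Gm9706, a predicted gene, at 7.38 against 5.49 to 5.69, and in Apol9a, an apolipoprotein L gene, at 5.53 against 3.59 to 3.89. Their differences were 3.59 ± 0.37 and 2.93 ± 0.38. Ifit1bl1, an Ifit family gene, had 6.58 to 6.83 in TG at 120 ppm, 6.38 to 6.50 in TG at 0 ppm, 9.20 to 9.88 in WT at 120 ppm and 6.51 to 7.05 in WT at 0 ppm. Its TG groups did not overlap, but its TG change of 0.30 ± 0.17 missed the threshold (adjusted p = 0.382), and its difference was 2.48 ± 0.24 (limma, adjusted p = 5.16e-09).

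**Figure D1:**
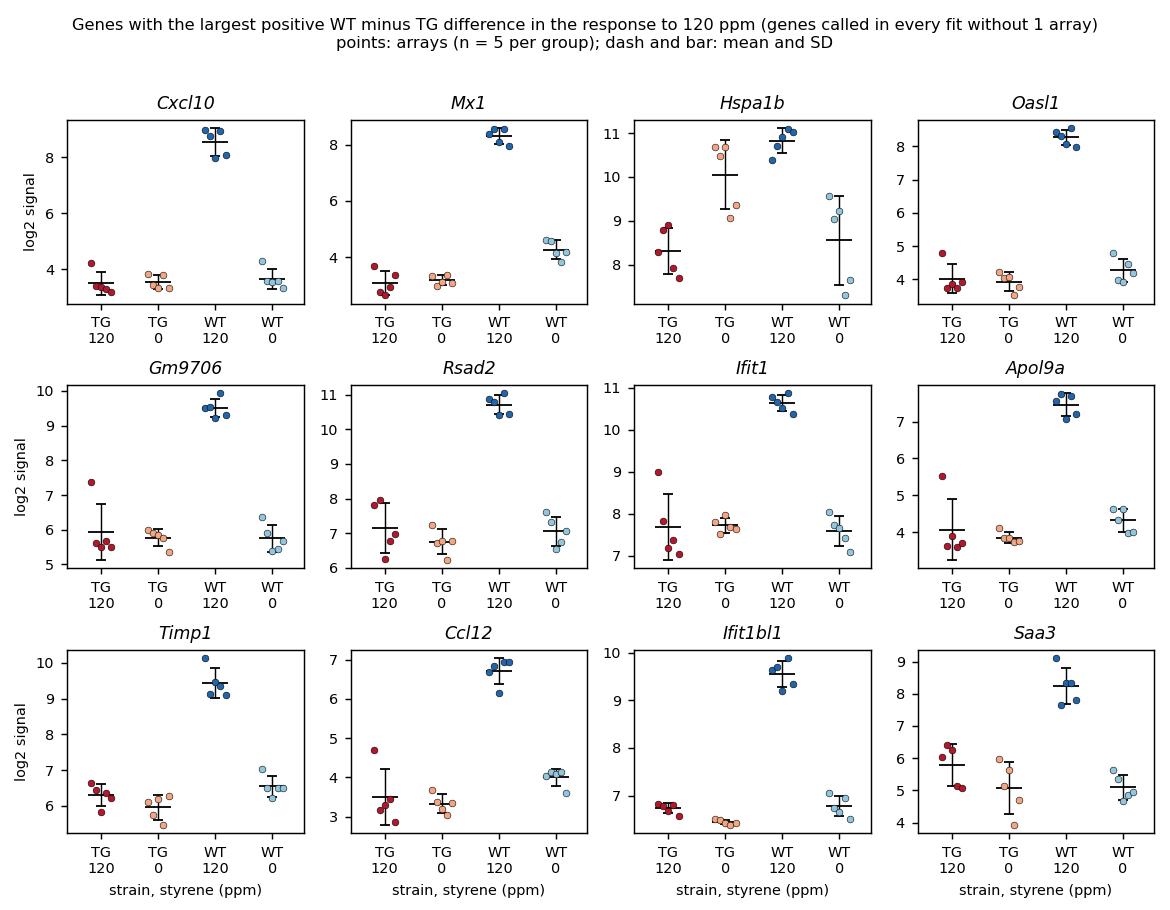
Log2 signal of the 12 genes with the largest positive WT minus TG difference among those whose call held in every fit without 1 array, by strain and styrene dose in ppm, with 1 point per array and the mean and SD of 5 arrays per group. In Cxcl10 the exposed WT lungs sit between 7.96 and 8.98, above all other lungs, and in Hspa1b the TG groups are also apart.

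The interferon system was described by its parts. Beside a count of called genes, background is the share of all 11406 genes with the same call. Only the 89 genes named by rule were checked for passing the filter through exposed WT lungs alone. Positive counts of a list may therefore be partly set by that filter. None of the 9 interferon genes on the list passed the filter on signal. Of the 9 receptors and kinases tested none had a called difference in either direction (range -0.25 to 0.19, median -0.08). The background of 9.75% would leave few or none in a list of this size. Among 8 transcription factors 3 had a positive difference (background 3.87%): Irf7, the amplifier of the response, at 2.38 ± 0.30, Stat2 at 1.41 ± 0.24 and Irf9 at 0.63 ± 0.18. The adjusted p of Irf9 reached 0.0551 in the fits without 1 array, and 5 of the 8 had one without TG 0 ppm replicate 4. Irf7 was at 4.91 to 6.19 in TG at 120 ppm, 4.52 to 5.24 in TG at 0 ppm, 8.29 to 8.80 in WT at 120 ppm and 5.67 to 6.15 in WT at 0 ppm, so that only the WT groups were apart.

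Sensors of foreign nucleic acid showed a positive difference in 7 of 10 genes (background 3.87%) and a negative one in none (5.88%). Dhx58, which regulates RIG-I-like receptors, had a difference of 2.16 ± 0.27, Zbp1, a sensor of Z-form nucleic acid, 2.42 ± 0.36 and Ddx58, which encodes RIG-I, 0.97 ± 0.17. Antiviral effectors had a positive difference in 15 of 19 genes (background 3.87%), with a median difference of 1.73, a median change of 0.13 in TG and 1.90 in WT. Among the compared groups only exposed WT lungs carried Oasl1 past the table median, and this was nearly so for Mx1. The count is therefore partly set by the filter. None of the 19 had a called change in TG, where the background of 0.982% would leave few or none in a list of this size, and 16 rose in WT (background 11.1%). In ISG15 conjugation 2 of 4 genes had a positive difference (3.87%), Usp18, which removes ISG15, at 2.14 ± 0.27 and Herc6, a ligase, at 1.21 ± 0.28. Interferon-induced GTPases did so in 5 of 8 genes (3.87%), among them Tgtp1 at 1.40 ± 0.25, Iigp1 at 1.57 ± 0.31 and Irgm1 at 1.13 ± 0.23. Of 8 MHC class I presentation genes only Nlrc5, a transactivator of that class, had a called difference (1.04 ± 0.29, limma, adjusted p = 0.0158; background 9.75%), and 3 had one without TG 0 ppm replicate 4.

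Of 7 monocyte and neutrophil chemokines tested, 3 had a positive difference (background 3.87%), all of them ligands that draw monocytes. Among the compared groups only the exposed WT lungs carried these 3 past the table median that the filter used. Their count against the background is therefore partly set by that filter and is no result about the list. Ccl12 was at 2.87 to 4.71 in TG at 120 ppm, 3.04 to 3.69 in TG at 0 ppm, 6.15 to 6.93 in WT at 120 ppm and 3.60 to 4.14 in WT at 0 ppm, a difference of 2.54 ± 0.33 (limma, adjusted p = 1.54e-06). Its means of 3.50, 3.33 and 4.00 in TG at 120 ppm, TG at 0 ppm and WT at 0 ppm were under the table median. Ccl7 had a difference of 2.27 ± 0.27 and Ccl2 of 2.07 ± 0.25. Ccl2 had 2.96 to 3.13 in TG at 120 ppm and 2.94 to 3.30 in TG at 0 ppm, both under the median of the whole table (4.28), against 5.53 to 6.18 in WT at 120 ppm and 3.54 to 4.12 in WT at 0 ppm.

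Cytokines, IL-6 pathway genes and acute phase genes had 8 positive differences (background 3.87%) and no negative one (5.88%) among 13 tested (median 1.25, with 0.02 in TG and 1.41 in WT). Saa3, an acute phase apolipoprotein, had 6.05, 6.42, 6.26, 5.13 and 5.07 in TG at 120 ppm and 5.97, 5.13, 5.62, 3.92 and 4.69 in TG at 0 ppm. WT lungs had 9.10, 7.65, 8.32, 8.34 and 7.80 at 120 ppm and 5.64, 5.36, 4.67, 4.84 and 4.96 at 0 ppm. The TG groups overlapped and the difference was 2.43 ± 0.54 (limma, adjusted p = 0.00254). Timp1, an inhibitor of matrix proteases, had 5.84 to 6.64 in TG at 120 ppm, 5.46 to 6.28 in TG at 0 ppm, 9.09 to 10.13 in WT at 120 ppm and 6.23 to 7.03 in WT at 0 ppm, and its difference was 2.54 ± 0.40. Socs3, a feedback inhibitor of IL-6 signalling, had a difference of 1.52 ± 0.21 and Serpina3n, a protease inhibitor, of 1.71 ± 0.25. Il6 itself, named after its values were seen, changed by -0.16 in TG (no call) and rose by 1.76 in WT, a difference of 1.92.

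**Figure D2:**
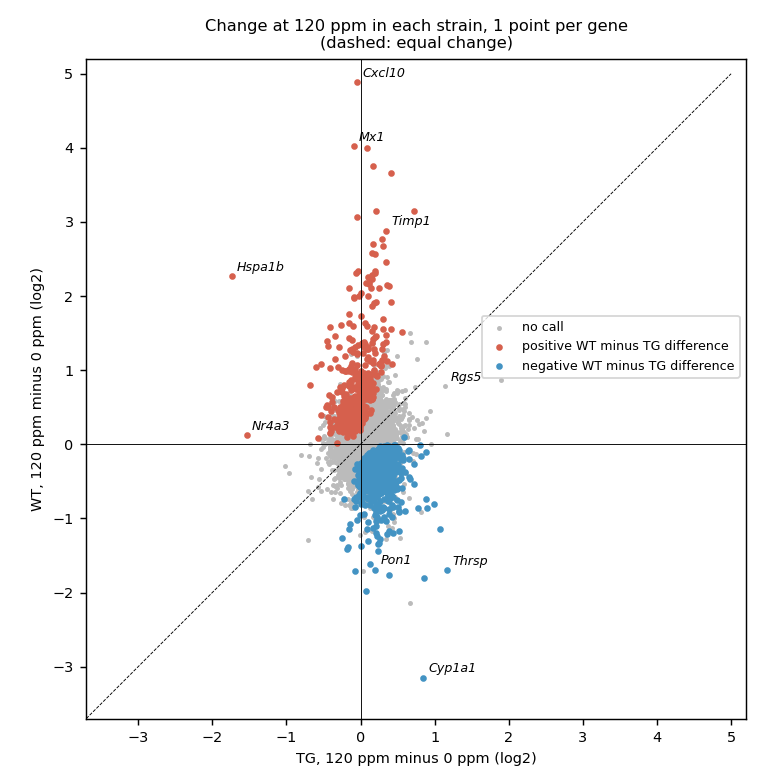
Change between 120 and 0 ppm (log2) in TG on the horizontal axis and in WT on the vertical axis, 1 point per gene for 11406 genes, with called positive differences in red and called negative ones in blue. Cxcl10 and Mx1 lie near 0 in TG and above 4 in WT, Hspa1b lies at -1.74 in TG, and Cyp1a1 lies at -3.15 in WT.

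Hspa1b, an inducible heat shock protein 70, differed in another way. TG lungs had 8.29, 8.78, 8.90, 7.92 and 7.69 at 120 ppm and 10.68, 10.49, 10.69, 9.06 and 9.36 at 0 ppm. WT lungs had 10.39, 10.71, 10.91, 11.09 and 11.03 at 120 ppm and 9.57, 9.03, 9.23, 7.30 and 7.64 at 0 ppm. The groups did not overlap in either strain, and their order was opposite. Replicates 4 and 5 were the lowest of their group in TG at 120 ppm, TG at 0 ppm and WT at 0 ppm, but not in WT at 120 ppm. The mean of the 9 heat shock genes had the same pattern: 9.75 and 9.74 in these replicates against 9.89 to 10.06 in TG at 120 ppm, 10.19 and 10.14 against 10.43 to 10.62 in TG at 0 ppm, and 9.65 and 9.79 against 10.40 to 10.46 in WT at 0 ppm. Exposed WT lungs had 10.43 and 10.48 in replicates 4 and 5, against 10.40 to 10.51. In TG the change of -1.74 ± 0.47 missed the threshold (adjusted p = 0.0587), in WT it was 2.27 ± 0.47 (0.000622), and the difference was 4.01 ± 0.67 (limma, adjusted p = 7.66e-05). With the replicate number as a block the adjusted p of Hspa1b was 5.69e-05 (limma). Every group holds each replicate number, so that block could not move the difference of 4.01 itself. What the replicates 4 and 5 share was not tested. Hspa1b was the only call among 9 heat shock genes tested, a share near the background of 9.75% and no result about that list. With arrays centred 3 had a call. All 9 had a TG change below 0 (range -1.74 to -0.05, none called).

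Genes of DNA replication had a positive difference in 22 of 29 (background 3.87%) and a negative one in none (5.88%; median 0.66, with 0.03 in TG and 0.74 in WT). Rrm2, the small subunit of ribonucleotide reductase, had 3.03, 3.28, 3.11, 2.91 and 2.63 in TG at 120 ppm and 3.41, 3.60, 3.50, 3.15 and 3.57 in TG at 0 ppm. WT lungs had 6.19, 5.79, 6.09, 6.29 and 6.23 at 120 ppm and 4.72, 5.14, 4.77, 4.49 and 4.49 at 0 ppm. It fell in TG by 0.45 ± 0.12 (limma, adjusted p = 0.0499, and 0.0959 with TG arrays fitted alone), on signals below the table median, rose in WT by 1.40 ± 0.12, and its difference was 1.85 ± 0.17 (7.17e-10). Pole, a DNA polymerase subunit, had a difference of 1.28 ± 0.17 and Cdt1, which licenses replication origins, of 0.98 ± 0.13. Among the compared groups only exposed WT lungs carried Pole past the table median, so this list's count is partly set by the filter. Mitosis genes had a positive difference in 6 of 13 (3.87%) and a negative one in none (5.88%), and all 13 changed by less than 0 in TG (range -0.61 to -0.05, none called). Top2a, which untangles chromosomes, had 4.39 to 4.62 in TG at 120 ppm, 4.71 to 5.69 in TG at 0 ppm, 5.99 to 6.46 in WT at 120 ppm and 4.71 to 5.79 in WT at 0 ppm, and its difference was 1.63 ± 0.28. Cdk1, the kinase that starts mitosis, had a difference of 1.65 ± 0.33 and Ccna2, a cyclin, of 1.05 ± 0.24.

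Smaller groups of genes had positive differences as well. Among 18 unfolded protein response and ATF4 genes 7 had one (background 3.87%). Among them were Psat1, which makes serine, at 1.26 ± 0.24, Atf3, a stress transcription factor, at 1.06 ± 0.22 and Atf4 at 0.48 ± 0.09. Phgdh, the first enzyme of serine synthesis, was the 1 negative call (-0.45, background 5.88%) and was named after its value was seen. That negative call was absent with arrays centred, where 10 were positive. Of 18 matrix, Timp and Mmp genes 5 had a positive difference (3.87%) and none a negative one (5.88%), with fibronectin (Fn1) at 0.85 ± 0.19 and tenascin C (Tnc) at 1.59 ± 0.40 beside Timp1. Fn1 had 9.26 to 9.73 in TG at 120 ppm, 9.69 to 10.12 in TG at 0 ppm, 10.35 to 10.90 in WT at 120 ppm and 9.99 to 10.39 in WT at 0 ppm. Smooth muscle actin (Acta2) had a difference of 1.20 ± 0.20, the 1 call among 7 pericyte and smooth muscle markers (background 9.75%). Sterol synthesis had 3 of 19 (3.87%): Cyp51 at 0.72 ± 0.21, Idi1 at 0.57 ± 0.18 and Hmgcs1 at 0.55 ± 0.18, all of which lost their call without 1 array or another (highest adjusted p 0.0552, 0.0937 and 0.103). In WT 14 of these 19 rose (background 11.1%), and in TG none did (0.903%). Among the compared groups only exposed WT lungs carried Hmgcs1 past the table median, so these counts are partly set by the filter. Among NRF2 and glutathione genes 3 were positive (3.87%) and 3 negative (5.88%) of 19. Gclc, the catalytic subunit of glutathione synthesis, was positive at 0.73 ± 0.15, and Gstm1, a glutathione transferase, and Ephx1, the microsomal epoxide hydrolase, were negative at -0.66 ± 0.09 and -0.56 ± 0.09.

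Among 13 immediate early genes 4 had a positive difference (background 3.87%) and none a negative one (5.88%). Egr1, a transcription factor induced within minutes by growth and stress signals, had 6.66, 6.68, 6.73, 6.97 and 6.60 in TG at 120 ppm and 7.10, 6.91, 6.96, 6.97 and 7.20 in TG at 0 ppm. WT lungs had 8.33, 8.22, 8.71, 8.45 and 8.86 at 120 ppm and 8.26, 7.37, 7.09, 7.30 and 7.35 at 0 ppm. WT 0 ppm replicate 1, the array high in squamous markers, was the only unexposed WT lung within the exposed range, and the difference was 1.34 ± 0.30 (limma, adjusted p = 0.00292). Of 13 p53 targets, 3 had a call (background 9.75%). The nuclease gene Aen had a positive difference (0.65 ± 0.15). Trp53inp1 and Sesn1, both stress-induced, had negative ones (-0.53 ± 0.15 and -0.51 ± 0.17, limma, adjusted p = 0.0175 and 0.0468). With arrays centred, and also without TG 0 ppm replicate 4, the list had 2 positive calls and 1 negative call. Of 11 fibroblast markers (background 9.75%), Fn1 was positive as above and decorin (Dcn) negative at -1.03 ± 0.30 (limma, adjusted p = 0.0254, up to 0.0608 without 1 array). Lcn2, an iron-binding acute phase protein, had a positive difference (1.14 ± 0.26). It was the 1 call among 15 glucocorticoid response genes, a share near the background of 9.75% and no result about that list.

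**Figure D3:**
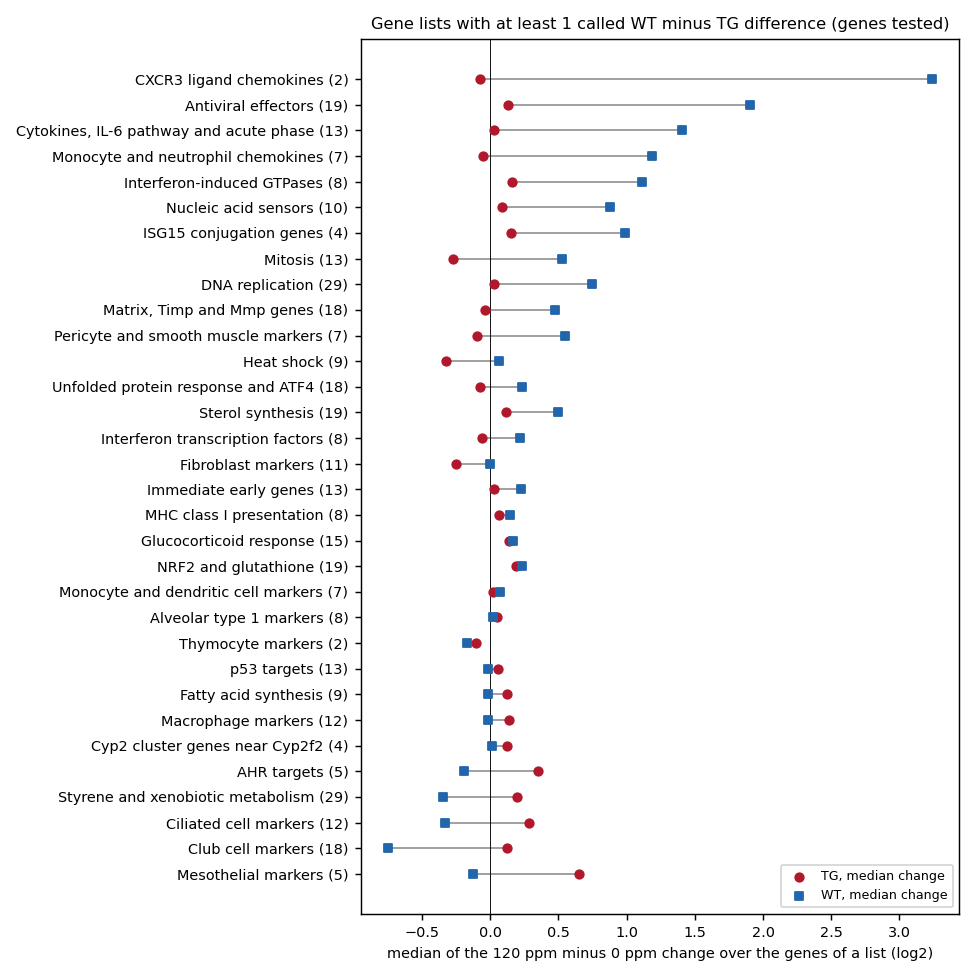
Median change between 120 and 0 ppm (log2, horizontal axis) over the tested genes of each list, with TG as circles and WT as squares, for lists with at least 1 called difference and the number of genes tested in brackets. The antiviral effectors stand at 0.13 in TG and 1.90 in WT, and the club cell markers at 0.12 in TG and -0.75 in WT.

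The largest negative differences followed the same order, again among genes whose call held in every fit without 1 array. Sult1d1, a sulfotransferase named after its value was seen, had a called difference of -2.66 (limma, adjusted p = 0.0274) that did not hold in every such fit. Cyp1a1, a cytochrome P450 driven by the aryl hydrocarbon receptor, had the largest negative difference. Its signal was 6.87, 10.06, 6.98, 7.66 and 6.35 in TG at 120 ppm and 5.82, 6.68, 7.54, 6.84 and 6.83 in TG at 0 ppm. In WT it was 4.26, 5.33, 5.16, 4.64 and 4.85 at 120 ppm and 7.68, 8.38, 8.34, 7.47 and 8.11 at 0 ppm. The WT groups were apart, while the TG groups overlapped and the highest value of all was that of TG 120 ppm replicate 2. The change was 0.84 ± 0.57 in TG (adjusted p = 0.459) and -3.15 ± 0.57 in WT (0.000107), a difference of -3.99 ± 0.80 (limma, adjusted p = 0.000929). Of the other AHR targets tested, Nqo1, a quinone reductase, had a positive difference (0.77 ± 0.19, limma, adjusted p = 0.0074), and the other 3 had no call (background 9.75%).

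Enzymes of styrene and xenobiotic metabolism had a negative difference in 17 of 29 genes (background 5.88%) and a positive one in 1 (3.87%). The latter was Ces1g, named after its value was seen (1.20). The median difference was -0.50, with 0.20 in TG and -0.35 in WT, and the negative count was 13 with arrays centred. In WT 15 of the 29 fell (background 7.43%), and in TG 2 rose (0.903%) and none fell (0.0789%). Aox3, an aldehyde oxidase, had 9.33, 9.55, 9.39, 9.37 and 9.59 in TG at 120 ppm and 9.12, 8.89, 9.14, 9.15 and 9.06 in TG at 0 ppm. WT lungs had 8.44, 8.68, 8.68, 8.63 and 8.68 at 120 ppm and 9.71, 9.70, 9.84, 9.89 and 9.80 at 0 ppm. Neither pair of groups overlapped: Aox3 rose in TG by 0.38 ± 0.08 (limma, adjusted p = 0.0169, and 0.0689 with TG arrays fitted alone) and fell in WT by 1.17 ± 0.08, a difference of -1.55 ± 0.11 (1.31e-11). Ces1d, a carboxylesterase, had 10.72 to 10.84 in TG at 120 ppm, 10.48 to 10.74 in TG at 0 ppm, 10.38 to 10.73 in WT at 120 ppm and 11.17 to 11.30 in WT at 0 ppm, a difference of -0.83 ± 0.10. Gstm1 had 10.42 to 10.76, 10.30 to 10.40, 10.62 to 10.89 and 11.11 to 11.25 in the same order of groups. Of 4 Cyp2 genes tested near Cyp2f2, Cyp2b10 had a call (-0.36 ± 0.11, adjusted p = 0.0383, up to 0.0785 without 1 array; background 9.75%).

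Markers of club cells had a negative difference in 9 of 18 (background 5.88%) and a positive one in 1 (3.87%), with a median of -0.79 (0.12 in TG and -0.75 in WT). In WT 10 of the 18 fell (background 7.43%) and 1 rose (11.1%), and in TG 2 rose (0.903%) and none fell (0.0789%). Pon1, an esterase, had 9.94, 10.09, 9.89, 9.40 and 9.74 in TG at 120 ppm and 9.51, 9.55, 9.51, 9.79 and 9.72 in TG at 0 ppm. WT lungs had 8.62, 8.96, 8.98, 8.91 and 8.91 at 120 ppm and 10.67, 10.62, 10.42, 10.68 and 10.44 at 0 ppm. The WT groups were apart and the TG groups overlapped, and the difference was -1.89 ± 0.20 (limma, adjusted p = 2.6e-08). Cldn10, a tight junction claudin, had 7.16 to 7.67 in TG at 120 ppm, 6.70 to 7.11 in TG at 0 ppm, 6.89 to 7.51 in WT at 120 ppm and 7.83 to 8.09 in WT at 0 ppm. It rose in TG by 0.50 ± 0.12 (limma, adjusted p = 0.0318, 0.110 with TG arrays fitted alone and 0.0790 without TG 0 ppm replicate 4), fell in WT by 0.75 ± 0.12, and its difference was -1.25 ± 0.17.

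Chad, a cartilage matrix protein gene on the club list, had 8.43 to 9.21 in TG at 120 ppm, 7.70 to 8.98 in TG at 0 ppm, 6.35 to 7.82 in WT at 120 ppm and 8.46 to 9.36 in WT at 0 ppm, a difference of -2.16 ± 0.45. Lypd2, a Ly6 family gene, had 8.15 to 9.41, 8.10 to 9.24, 7.09 to 8.47 and 9.32 to 10.17 in the same order, and a difference of -2.06 ± 0.50. Scgb1a1, the main club secretoglobin, changed by 0.00 in TG and -0.09 in WT with no call, and Retnla, a resistin-like protein also made by macrophages, was the 1 positive call (1.41); both were named after their values were seen. The mean of the 18 markers was 9.87 to 10.41 in TG at 120 ppm, 9.50 to 10.31 in TG at 0 ppm, 9.65 to 10.32 in WT at 120 ppm and 10.41 to 10.99 in WT at 0 ppm. In WT the groups were apart, and in TG they overlapped with TG 0 ppm replicate 3 lowest.

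Ciliated cell markers had a negative difference in 6 of 12 (background 5.88%) and a positive one in none (3.87%; median -0.59, with 0.29 in TG and -0.33 in WT). The count was 4 with arrays centred and 8 without TG 0 ppm replicate 4. Ccdc153, a gene of motile cilia, had a difference of -1.02 ± 0.23, Dnali1, a dynein light chain, -0.91 ± 0.25 and Tppp3, a tubulin-binding protein, -0.59 ± 0.12. Ccdc153 had 9.87 to 10.54 in TG at 120 ppm, 9.50 to 10.40 in TG at 0 ppm, 9.35 to 9.82 in WT at 120 ppm and 10.09 to 10.51 in WT at 0 ppm. Foxj1, the transcription factor of ciliated cells, had no call (-0.02) and was named after its value was seen. The mean of the 12 markers was 7.67 to 8.18 in TG at 120 ppm, 7.30 to 8.07 in TG at 0 ppm, 7.82 to 8.19 in WT at 120 ppm and 8.26 to 8.60 in WT at 0 ppm. In WT the groups were apart, and in TG they overlapped.

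**Figure D4:**
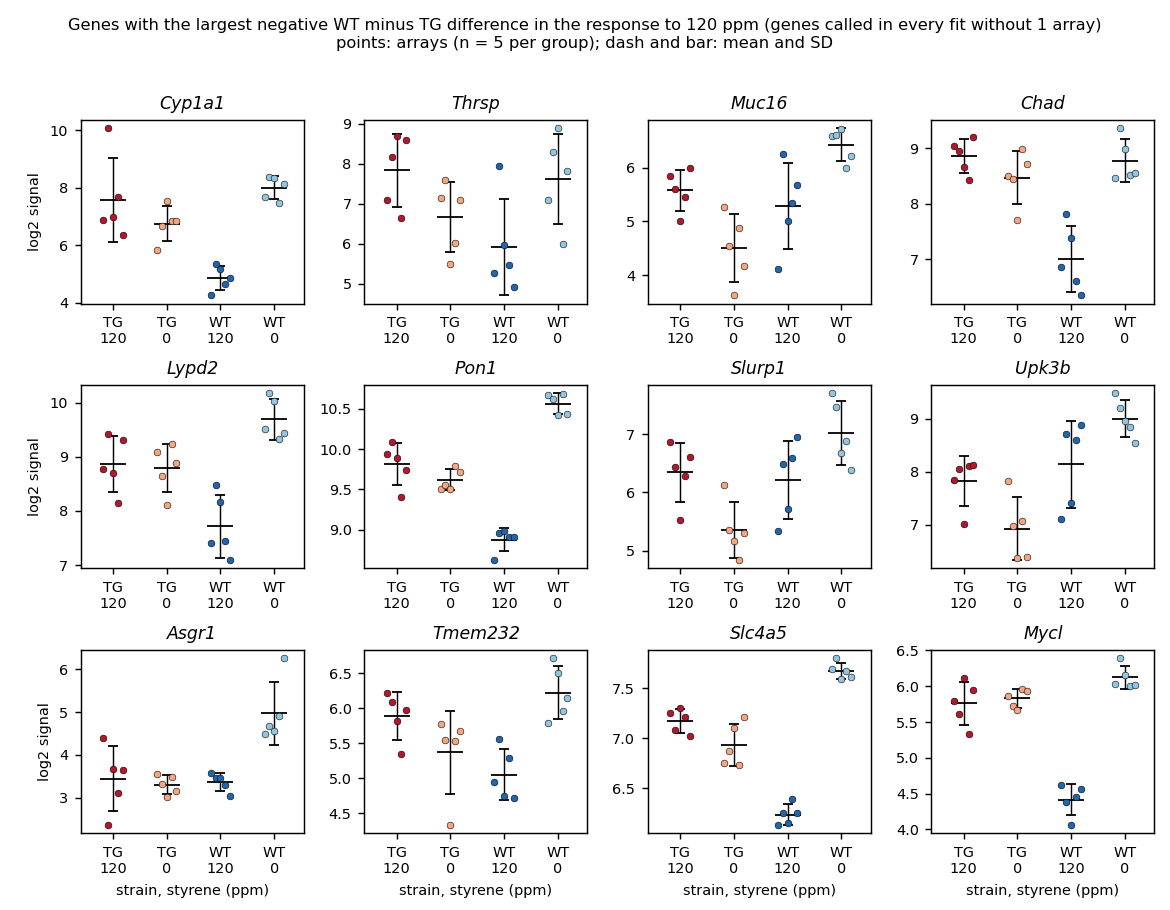
Log2 signal of the 12 genes with the largest negative WT minus TG difference among those whose call held in every fit without 1 array, by strain and styrene dose in ppm, with 1 point per array and the mean and SD of 5 arrays per group. The WT groups are apart in Cyp1a1, Pon1 and Slc4a5 and overlap in Thrsp, Muc16, Slurp1 and Upk3b.

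Several other genes led the negative side. Slc4a5, a bicarbonate transporter, had 7.25, 7.08, 7.30, 7.21 and 7.02 in TG at 120 ppm and 6.75, 6.87, 7.10, 6.73 and 7.21 in TG at 0 ppm. WT lungs had 6.13, 6.25, 6.15, 6.39 and 6.25 at 120 ppm and 7.69, 7.80, 7.59, 7.67 and 7.61 at 0 ppm. Its WT groups were more than 1 log2 unit apart, and its difference was -1.67 ± 0.15 (limma, adjusted p = 7.17e-10). Mycl, a transcription factor of the Myc family, had 5.33 to 6.12 in TG at 120 ppm, 5.67 to 5.96 in TG at 0 ppm, 4.06 to 4.62 in WT at 120 ppm and 6.01 to 6.39 in WT at 0 ppm, a difference of -1.64 ± 0.31. Asgr1, the asialoglycoprotein receptor, had a difference of -1.74 ± 0.38, with TG lungs at 2.36 to 4.40 at 120 ppm and 3.02 to 3.56 at 0 ppm, and WT lungs at 3.04 to 3.58 at 120 ppm and 4.48 to 6.26 at 0 ppm. Apart from TG 120 ppm replicate 1, only the unexposed WT lungs were above the table median of 4.28 for Asgr1. Tmem232, a transmembrane protein gene, had a difference of -1.69 ± 0.45.

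Muc16, a membrane mucin, Upk3b, a uroplakin of the mesothelium, and Slurp1, a secreted Ly6 protein, had differences of -2.22 ± 0.51, -1.76 ± 0.43 and -1.79 ± 0.39. Muc16 was at 5.84, 5.60, 5.00, 5.46 and 5.99 in TG at 120 ppm and 5.27, 4.55, 3.63, 4.88 and 4.17 in TG at 0 ppm. In WT it was at 4.12, 6.26, 5.00, 5.34 and 5.68 at 120 ppm and 6.58, 6.61, 6.72, 5.99 and 6.22 at 0 ppm. The Muc16 groups of each strain overlapped. The TG change of these genes was 1.08, 0.90 and 0.99 with no call (adjusted p = 0.122, 0.125 and 0.0661), and the WT change was -1.14, -0.86 and -0.81, each called. The mean of 6 mesothelial markers was 6.46 to 7.04 in TG at 120 ppm, 6.04 to 6.96 in TG at 0 ppm, 6.84 to 7.79 in WT at 120 ppm and 7.29 to 7.83 in WT at 0 ppm. Of the 5 tested, 1 had a called difference (background 9.75%), and the part of this tissue in the 3 results was not tested.

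Thrsp, a regulator of fat synthesis, had 7.10, 8.16, 8.69, 6.63 and 8.58 in TG at 120 ppm and 7.15, 7.60, 5.49, 6.03 and 7.08 in TG at 0 ppm. WT lungs had 5.28, 7.95, 5.96, 5.47 and 4.91 at 120 ppm and 7.09, 8.28, 8.88, 6.00 and 7.82 at 0 ppm. The groups overlapped in both strains, and the difference was -2.86 ± 0.80 (limma, adjusted p = 0.0174, up to 0.0416 without 1 array). The mean of 8 adipose tissue markers varied as well, with 4.79 to 5.91 in TG at 120 ppm, 4.45 to 5.35 in TG at 0 ppm, 4.55 to 7.03 in WT at 120 ppm and 4.89 to 5.88 in WT at 0 ppm. WT 120 ppm replicate 2 was the highest of its group in both. No adipose marker of 6 tested had a called difference (background 9.75%), and the part of fat tissue in the result was not tested. Acss2, which makes acetyl-CoA, had a difference of -0.83 ± 0.19.

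Among immune cell markers, Siglecf of alveolar macrophages had 6.23 to 7.12 in TG at 120 ppm, 6.56 to 6.83 in TG at 0 ppm, 5.85 to 6.39 in WT at 120 ppm and 7.01 to 7.46 in WT at 0 ppm, a difference of -0.98 ± 0.18 (limma, adjusted p = 0.00027). Csf1r, the receptor of a macrophage growth factor, had -0.43 ± 0.11, and the other 10 of 12 macrophage markers had no call (background 9.75%). Itgax, an integrin of dendritic cells and macrophages, was the 1 call among 7 monocyte and dendritic cell markers (-0.43 ± 0.14, limma, adjusted p = 0.0486, up to 0.0982 without 1 array; background 9.75%). With arrays centred that list had 1 positive and no negative call. Cd1d1, a molecule that presents lipids, was the 1 call of 2 thymocyte markers tested (-0.52 ± 0.13, limma, adjusted p = 0.00937; background 9.75%). No call was made among 9 neutrophil, 5 B cell and 11 T and NK cell markers tested, against the background of 9.75%. Endothelial (12) and alveolar type 2 (9) markers had none either, against the same background. Of 8 type 1 markers 1 had a call, the water channel Aqp5, with a positive difference of 0.34 ± 0.09. That share is near the background of 9.75% and is no result about the list. Of 15 circadian clock genes none had a called difference (background 9.75%, and 1 with arrays centred), while 3 rose (background 11.1%) and 7 fell (7.43%) in WT. None was called in TG, where the background of 0.982% leaves little to count in 15 genes. The range of the clock differences was -0.74 to 0.58.

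**Figure D5:**
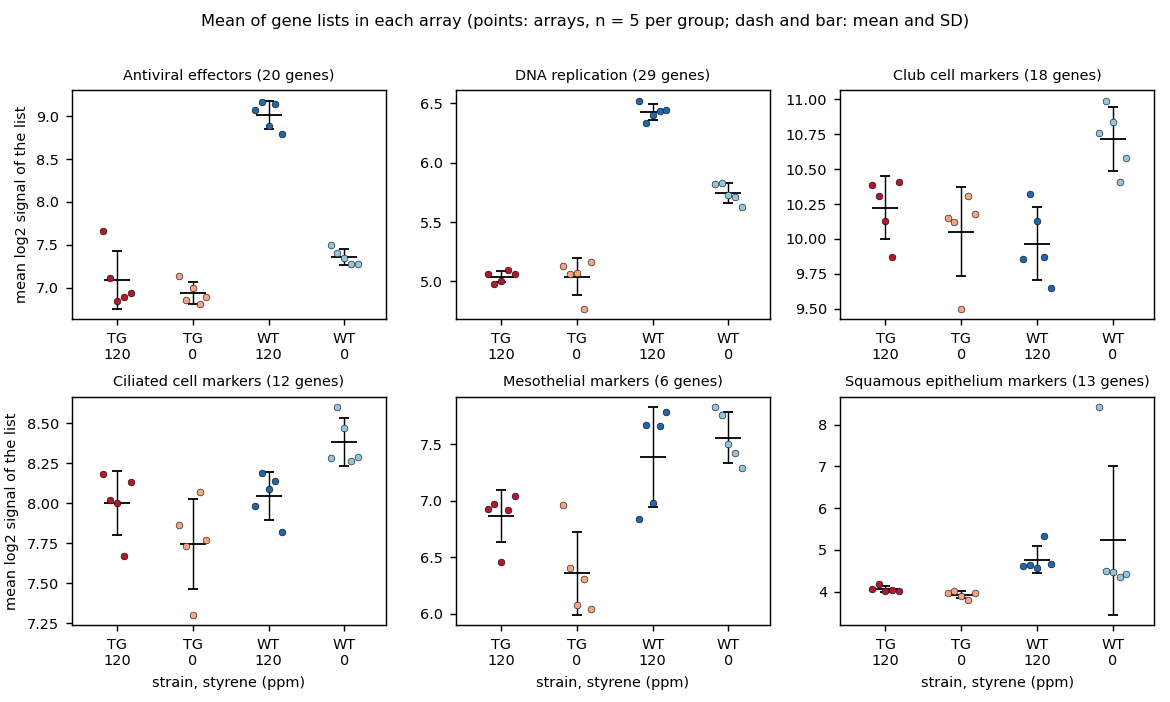
Mean log2 signal of 6 gene lists in each array, by strain and styrene dose in ppm, with 1 point per array and the mean and SD of 5 arrays per group. Within WT, antiviral effectors and DNA replication genes are higher in the exposed lungs, and club and ciliated cell markers are higher in the unexposed ones. For squamous epithelium markers 1 unexposed WT array stands at 8.42.

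The TG side of the interaction was small. At 120 ppm 103 genes were higher and 9 lower in TG (0.982% of genes, 0.903% and 0.0789%), against 1262 higher and 848 lower in WT (18.5%, 11.1% and 7.43%). The TG count was not stable: it was 34 higher and 17 lower without TG 0 ppm replicate 4, 22 and 17 with arrays centred, and 7 and 1 (0.0701%) with TG arrays fitted alone. It was 407 in all without TG 0 ppm replicate 5, 57 without TG 0 ppm replicate 3, and 60, 56 and 50 without TG 120 ppm replicates 1, 2 and 5. Of the 112 genes called in TG, 25 were also called in WT, where 18.5% of all genes were. The overlap is near that share and is no result about these genes. Of the 25, 11 were higher in both and 12 higher in TG and lower in WT. A further 2 were lower in TG and higher in WT, and none was lower in both. Rgs5, a regulator of G protein signalling found in pericytes, was one of the 11. It was at 6.72 to 7.10 in TG at 120 ppm, 5.16 to 6.05 in TG at 0 ppm, 6.72 to 7.15 in WT at 120 ppm and 5.75 to 6.26 in WT at 0 ppm. It rose by 1.14 ± 0.15 in TG (limma, adjusted p = 7.42e-05) and by 0.79 ± 0.15 in WT (0.000255), and the difference of -0.36 (95% interval -0.79 to 0.08) was not called (0.318).

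Nr4a3, an immediate early nuclear receptor, fell in TG. It had 4.81, 4.02, 4.28, 4.05 and 4.28 in TG at 120 ppm and 6.32, 6.37, 6.09, 4.73 and 5.63 in TG at 0 ppm. WT lungs had 5.04, 5.55, 5.00, 5.25 and 4.57 at 120 ppm and 5.01, 4.81, 4.91, 5.18 and 4.85 at 0 ppm. TG 0 ppm replicate 4 was the only unexposed TG lung within the range of the exposed ones. The change was -1.54 ± 0.22 in TG (limma, adjusted p = 0.000174) and 0.13 ± 0.22 in WT (0.747), a difference of 1.66 ± 0.31 (0.000371). Itih4, an acute phase protein gene, fell in TG by 0.44 ± 0.11 (limma, adjusted p = 0.0478, and 0.0694 without TG 0 ppm replicate 4) and rose in WT by 1.33 ± 0.11, a difference of 1.77 ± 0.16. Bbof1, a gene of ciliary basal bodies, had 5.69 to 6.40 in TG at 120 ppm, 4.99 to 5.44 in TG at 0 ppm, 4.96 to 5.58 in WT at 120 ppm and 5.70 to 6.15 in WT at 0 ppm. Its groups were apart in both strains in opposite order, with 0.88 ± 0.20 in TG (limma, adjusted p = 0.027), -0.74 ± 0.20 in WT and a difference of -1.62 ± 0.29. Vps33b, a vesicle fusion protein, rose by 0.85 ± 0.18 and Chst8, a sulfotransferase, fell by 0.68 ± 0.16 in TG, and the difference was not called for either (limma, adjusted p = 0.0764 for Vps33b). Without TG 0 ppm replicate 4 that of Chst8 was called, at 0.78 (limma, adjusted p = 0.0216). With TG arrays fitted alone the TG calls of Bbof1 (limma, adjusted p = 0.0959), Vps33b (0.117), Chst8 (0.0959) and Itih4 (0.0909) ended, and those of Rgs5 (0.00594) and Nr4a3 (0.0195) held.

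The TG response was also compared with that of KO mice, the strain without CYP2F2. No gene of 11406 had a called TG minus KO difference at 120 ppm (0%; limma, lowest adjusted p 0.0698, and 1190 genes under 0.05 before adjustment). The count was 7 with array weights and up to 12, without TG 0 ppm replicate 5. For Cxcl10 the TG minus KO difference was -0.08 (95% interval -0.47 to 0.31), for Mx1 -0.06 (-0.41 to 0.28) and for Oasl1 0.04 (-0.41 to 0.49). These intervals lie far below the WT minus TG differences of the same genes. The mean TG signals of these genes were under the table median at both doses. Nothing about a likeness of TG and KO is therefore read from them. Other leads were not near 0, with Saa3 at 0.92 (0.16 to 1.69), Ifit1bl1 at 0.38 (0.05 to 0.71) and Hspa1b at -1.30 (-2.59 to -0.02), and Irf7 had 0.49 (0.02 to 0.96). For Pon1 it was 0.37 (-0.05 to 0.79), for Cyp2f2 0.18 (-0.09 to 0.45) and for Cyp1a1 1.15 (-0.31 to 2.61). Before adjustment the interval left out 0 for 25 of the 89 named genes, against 1190 of all 11406. Among the 25 were 6 of the 24 leads and 9 of the 10 genes chosen by their TG change. The leads, the list members and these 10 were all chosen with TG arrays that also enter this comparison, so the 25 are no separate support. The intervals of Rgs5 (0.46 to 1.43) and Nr4a3 (-1.68 to -0.44) were 2 of them. None of the 25 was called after adjustment (limma, adjusted p of 0.165 for Rgs5 and 0.216 for Nr4a3).

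Set side by side, the WT minus TG differences at 10, 40 and 120 ppm share the 0 ppm arrays of both strains. Those of Cxcl10 were 4.80, 4.50 and 4.93 (SE 0.45 each), those of Mx1 4.18, 3.71 and 4.12 (SE 0.31) and those of Pon1 -1.69, -1.76 and -1.89 (SE 0.20). Each of these genes stood at about its 120 ppm value at 10 ppm already. Cyp1a1 had -0.84, -4.55 and -3.99 (SE 0.80), Thrsp 0.33, -2.95 and -2.86 (SE 0.80) and Cyp2f2 -0.50, -1.13 and -0.76 (SE 0.14). For Cyp1a1 and Thrsp the 10 ppm value was within 2 standard errors of 0. No difference between doses was tested.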

How the data were processed

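The deposited values are log2 signals of 45037 probe sets, made by the authors (RMA and Partek are named in the submitters' processing notes). No source used here gives versions, settings or whether the strains were processed together. The 28898 probe sets with 1 gene symbol in the platform annotation were used, the one with the highest mean over 80 arrays per gene, and 11406 genes above the table median (4.28) in at least 5 arrays were tested.

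A model with a mean for each of 8 groups was fitted to the 40 TG and WT arrays (32 residual degrees of freedom) with limma 3.58.1 in R 4.3.3, and p-values were adjusted by Benjamini-Hochberg. SEs come from this fit, and fold changes are 2 raised to the log2 change. TG and KO were fitted likewise. The median SE of the WT minus TG difference was 0.141, and the number of arrays limits the precision. On simulated data with independent noise for each gene and array, 55.2, 95.5 and 100% of differences of 0.5, 1 and 2 log2 units were recovered. There 2.91% of calls were false. Few genes were changed and no shift was shared by the genes of an array, so these rates need not hold for the real arrays. Named were Cyp2f2, the 12 largest positive and 12 largest negative called differences that held in every fit without 1 array, the 5 largest rises and falls called in TG, and up to 3 called members of each list with the lowest p; others are said to be named after their values were seen. The members and lists were chosen with earlier results of these data known. Over all genes tested, same-numbered replicates did not deviate together (60 pairs within strains, correlations -0.521 to 0.381), so the numbers were not taken to pair samples. The heat shock genes differ from this, with replicates 4 and 5 low in TG at both doses and in WT at 0 ppm, as given above. Alternatives covered the filter, scaling, array weights, probe sets, arrays in the fit, a replicate block and leaving out each array. The labels give no batch, which was not tested. Promoters are RefSeq's (GRCm38.p6); 27025 genes have an entry. Figures were drawn with matplotlib 3.10.9.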

Additional observations from a re-analysis of the deposited data

Results flagged for a closer look

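The response to 120 ppm differed between WT and TG by the test of the difference itself for 1112 genes. The positive leads were Cxcl10 (4.93), Mx1 (4.12), Hspa1b (4.01), Oasl1 (3.92), Gm9706 (3.59), Rsad2 (3.26), Ifit1 (3.11), Apol9a (2.93), Timp1 and Ccl12 (2.54 each), Ifit1bl1 (2.48) and Saa3 (2.43). The negative leads were Cyp1a1 (-3.99), Thrsp (-2.86), Muc16 (-2.22), Chad (-2.16), Lypd2 (-2.06), Pon1 (-1.89), Slurp1 (-1.79), Upk3b (-1.76), Asgr1 (-1.74), Tmem232 (-1.69), Slc4a5 (-1.67) and Mycl (-1.64).

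A single array lay far from the other 4 of its group, by Dixon's 95% criterion, in 26 of 356 groups of the 89 named genes; chance alone marks about 1 in 20 groups. TG 120 ppm replicate 1 was high for Cxcl10 (4.23, next 3.39), Oasl1 (4.78), Gm9706 (7.38), Apol9a (5.53), Zbp1 (5.66), Usp18 (8.42) and Akr1c14 (9.99). In the other TG 120 ppm arrays Vps33b was high in replicate 2 (5.72), Upk3b (7.01) and Top2a (4.39) were low in replicate 3 and Rasl10a was low in replicate 4 (3.10). TG 0 ppm replicate 4 was low for Irf7 (4.52), Socs3 (6.36) and Nqo1 (3.17) and in its array median (3.84, next 4.07). In TG 0 ppm, Tmem232 was also low in replicate 3 (4.33) and Ephx1 in replicate 1 (9.61).

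WT 120 ppm replicate 1 was low for Pon1 (8.62), Aox3 (8.44) and its array median (4.53) and high for Chst8 (4.88). Rgs5 was high in WT 120 ppm replicate 4 (7.15) and Top2a low in replicate 2 (5.99). WT 0 ppm replicate 1 was high for Cxcl10 (4.28) and Egr1 (8.26), and replicate 5 was high for Asgr1 (6.26) and low for Ccl12 (3.60) and Aen (6.60).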

How the results depend on the processing

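The number of arrays, 5 per group, and the unknown joint processing of the strains limit these results. The 1112 called WT minus TG differences became 1706 with array weights, 1175 with arrays centred, 1241 after quantile normalization, 950 with only the 20 compared arrays, 944 without the filter, 1034 with a stricter one and 1375 over every probe set. Leaving out 1 array gave 835 (without WT 120 ppm replicate 1) to 1458 (without TG 0 ppm replicate 4), and leaving out that array and WT 0 ppm replicate 1, chosen after seeing the data, gave 1389. The 112 TG changes became 33 with only the 20 compared arrays, 39 with arrays centred, 40 after quantile normalization, 31 with array weights, 199 over every probe set, 56 without both arrays and 8 with each strain fitted alone, the last 2 chosen after seeing the data; leaving out 1 array gave 50 to 407. The 2110 WT changes became 3670 with array weights, 2730 with the strain fitted alone and 1707 to 2462 without 1 array. TG minus KO had 7 calls with array weights and 0 to 12 without 1 array (12 without TG 0 ppm replicate 5, 5 without KO 0 ppm replicate 1, 3 without KO 120 ppm replicate 5). The cause of these shifts was not tested. With the replicate number as a block, although the numbers were not found to pair samples, 1078, 105, 2062 and 0 genes were called in the 4 comparisons. Among called WT minus TG differences of the 89 named genes none changed sign in these fits or in those without 1 array. The stricter filter kept 76 of the 89, and fitting each strain alone gives no such difference. Calls were lost for 11 of the 89 in at least 1 fit without 1 array and for 7 without the filter. They were lost for 5 with arrays centred, 3 over every probe set, 2 after quantile normalization and 1 with array weights. With only the 20 compared arrays, with the replicate block and without both arrays, 4 were lost each time. A call was gained for 1 with arrays centred, after quantile normalization, with array weights and without both arrays.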
